A study of Mus musculus with 2 samples.

Results

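Annexins are a family of proteins that bind acidic phospholipids of cell membranes when calcium is present. They share a core of repeated domains and differ in their N-terminal tails, through which several of them bind S100 proteins and other partners. In lung they are known from airway and alveolar epithelium, endothelium and leukocytes, where they take part in membrane repair, vesicle fusion and the restraint of inflammation. The family was followed here in whole embryonic mouse lung at E13.5, when the airway tree is branching. Members were the 8 genes Anxa1, Anxa2, Anxa3, Anxa4, Anxa5, Anxa6, Anxa7 and Anxa11, out of 19938 genes that the arrays read through probe sets with 1 gene symbol. They were read by 9 probe sets, and where a gene had several, the brightest over both arrays stood for it. The members were chosen by these same values, since the family stood higher in the knockout array, so the differences between the pools are given as a description and no test was made of them.

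The arrays compared an Etv4;5 knockout pool with a wild type pool, both of embryonic lung at E13.5. Etv4 and Etv5 are ETS transcription factors that act downstream of fibroblast growth factor signalling in the tips of the lung epithelium. RNA of 3 samples per group was mixed in equal amounts, and each mixture was read once on an Affymetrix array. The comparison rests on these 2 arrays without replication. The labels call the mutant lungs both CKO and DKO and name no Cre line, no deleted exon and no sex. The pools are therefore compared without any p-value or SD, and every difference below is the knockout value minus the wild type value on the log2 scale.

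All 8 members counted as measured, which meant that a gene's brighter value reached its array's median (7.58 on the knockout array and 7.60 on the wild type array). That limit left 11045 measured genes. Their median difference was 0, the central 95% lay between -0.22 and 0.20, and 25.7% of them were higher in the knockout pool by any amount, while 47% were lower and 27.3% had exactly equal values. Etv4 had a value of 6.96 in the knockout pool, against 7.59 in the wild type pool, both under the array medians, so Etv4 did not count as measured. The used probe set of Etv5 had 11.28 in the knockout pool, against 11.51 in the wild type pool. The lung factor Nkx2-1 was at 10.70 in the knockout pool and 10.58 in the wild type pool, and the lung mesenchyme factor Foxf1 was at 12.26 in the knockout pool and 12.65 in the wild type pool. The pools differed in sex-linked genes: Xist was at 5.74 in the knockout pool, against 12.34 in the wild type pool, and Uty, Kdm5d and Eif2s3y, which lie on the Y chromosome, differed by 0.64, 0.53 and 0.53. Genotype and the sex makeup of the pools cannot be told apart. This holds for the members too, which lie on autosomes (chromosomes 3, 5, 6, 9, 11, 14 and 19).

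Within the family, Anxa1 stood far from the other members. Annexin A1 is a glucocorticoid-induced protein that restrains phospholipase A2 and leukocyte recruitment and is a substrate of the EGF receptor kinase. Anxa1 had a value of 8.89 in the knockout pool, against 7.50 in the wild type pool, a difference of 1.39 or 2.61-fold. It was the fifth largest positive difference among the 11045 measured genes. Nothing is read from this rank, because the members were chosen on this contrast. Anxa1 was the only member of 8 that differed by at least 2-fold, where 0.0543% of all measured genes were higher by that much. The same single member passed at 1.5-fold, where 0.172% of measured genes were higher, and at 1.2-fold, where 1.39% were. The wild type value of Anxa1 lay 0.10 under its array's median. The gene therefore counted as measured only through the knockout array, and the size of its difference rests on a dim signal. Under 3 other scalings of the arrays its difference stayed between 1.39 and 1.41.

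The sequence around the RefSeq start site of Anxa1 is shown because this gene carries most of the family's difference, beside Anxa2, a member with a small positive difference, and Anxa5, a member with equal values. Each window runs from 250 bases before to 50 bases after the start, 5′ to 3′ on the gene's strand, in the RefSeq build GRCm38.p6. The Anxa1 window is chr19:20390622-20390921 on the minus strand, that of Anxa2 is chr9:69453433-69453732 on the plus strand and that of Anxa5 is chr3:36475838-36476137 on the minus strand. Capitals mark GGAA, the core that ETS factors bind, with its reverse complement TTCC, and the TATA box letters TATAAA.
Anxa1: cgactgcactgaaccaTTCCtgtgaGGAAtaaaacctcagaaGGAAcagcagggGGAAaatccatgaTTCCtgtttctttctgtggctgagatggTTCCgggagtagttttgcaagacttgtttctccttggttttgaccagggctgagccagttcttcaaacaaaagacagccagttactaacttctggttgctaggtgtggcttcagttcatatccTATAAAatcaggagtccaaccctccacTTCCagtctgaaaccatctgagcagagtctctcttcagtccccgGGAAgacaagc
Anxa2: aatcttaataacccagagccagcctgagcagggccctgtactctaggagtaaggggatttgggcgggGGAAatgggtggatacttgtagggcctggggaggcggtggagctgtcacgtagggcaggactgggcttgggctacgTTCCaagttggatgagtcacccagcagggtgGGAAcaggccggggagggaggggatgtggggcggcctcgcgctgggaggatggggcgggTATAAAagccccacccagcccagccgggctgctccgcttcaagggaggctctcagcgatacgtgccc
Anxa5: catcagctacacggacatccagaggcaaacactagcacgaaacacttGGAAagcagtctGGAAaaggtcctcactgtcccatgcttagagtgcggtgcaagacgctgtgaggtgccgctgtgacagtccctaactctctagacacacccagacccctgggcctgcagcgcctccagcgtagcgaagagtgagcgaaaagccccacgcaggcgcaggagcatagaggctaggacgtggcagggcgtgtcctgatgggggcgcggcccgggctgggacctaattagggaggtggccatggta

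GGAA, searched on both strands, had 8 matches in the Anxa1 window, and 3.72% of all 32851 windows of this length in the table held at least as many. Nothing is read from this share, since Anxa1 was picked for its difference and the motifs after the windows were seen. The matches lay at 234, 225, 208, 196, 183, 155 and 5 bases before the start and at 39 bases after it, counted to the leftmost base of each match. The Anxa2 window held 3 matches and the Anxa5 window 2, and such numbers are common, since 66.3% of windows held at least 3 and 84.6% at least 2. Windows were found for 6 of the 8 members, 8 windows in all, and outside Anxa1 they held between 2 and 4 matches. TATAAA, searched on both strands, was found 32 bases before the start of Anxa1 and 17 bases before that of Anxa2, in no other member's window, and in 13.6% of all windows. It overlapped no GGAA match in these windows. The longer ETS motif CCGGAAG was found in 0 of the members' windows and in 8.86% of all windows, and AGGAAG, which contains the core, in a window of Anxa4 and that of Anxa11 and in 35.4% of all windows. GGGCGG, also searched, was found in windows of 4 members, not in that of Anxa1, and in 35.7% of all windows. These matches describe letters in the windows and do not show binding.

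Anxa3 and Anxa2 came next in size. Annexin A3 is known from neutrophils and some epithelia and endothelia. Anxa3 had a value of 9.79 in the knockout pool, against 9.57 in the wild type pool, a difference of 0.22 (1.16-fold). Annexin A2 forms a complex with S100a10 at the plasma membrane, where it binds plasminogen and its tissue activator. Anxa2 had a value of 10.71 in the knockout pool, against 10.57 in the wild type pool, a difference of 0.14 (1.10-fold). Anxa3 was the only member besides Anxa1 above the central 95% of measured genes, and Anxa2 lay inside it. For genes read by 2 probe sets, the median gap between the differences of the 2 was 0.04 and the 90th percentile 0.18. Of the 8 members, 4 had a difference beyond that median gap (Anxa1, Anxa3, Anxa2 and Anxa11), where 44.3% of all measured genes had one in either direction, so that count is near the background. Beyond that 90th percentile lay 2 members (Anxa1 and Anxa3), where 7.09% of all measured genes did, and nothing is read from this because the members were chosen on this contrast.

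Anxa11 and Anxa4 were higher in the knockout pool by small amounts. Annexin A11 has a long proline-rich tail, binds the calcium sensor Pdcd6 and tethers RNA granules to lysosomes. Anxa11 had a value of 9.40 in the knockout pool, against 9.31 in the wild type pool, a difference of 0.09. Annexin A4 is an epithelial annexin that aggregates membranes. Anxa4 had a value of 9.32 in the knockout pool, against 9.29 in the wild type pool, a difference of 0.03, which is under the median gap between probe sets. Anxa1, Anxa3, Anxa2, Anxa11 and Anxa4 were higher in the knockout pool under each of 4 scalings of the arrays. For each of them the deposited difference was the lowest of the 4, so this agreement adds no support.

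Anxa5, Anxa6 and Anxa7 gave no direction. Annexin A5 binds phosphatidylserine and is the common probe for dying cells. Anxa5 had the value 12.36 in the knockout pool and the same value in the wild type pool. Annexin A7, known as synexin, promotes fusion of lamellar bodies with the plasma membrane in rat alveolar type 2 cells. Anxa7 had the value 7.86 in the knockout pool and the same value in the wild type pool. Annexin A6, which carries a duplicated core, had values of 11.84 in the knockout pool and 11.84 in the wild type pool on its used probe set, a difference of -0.0072. The signs of these 3 genes depended on the scaling: Anxa6 was positive under the 3 other scalings, Anxa7 was positive under 2 of them and negative under loess, and Anxa5 was positive under all 3. The other probe set of Anxa6 had a value of 7.59 in the knockout pool, against 7.49 in the wild type pool, a difference of 0.10, so its 2 probe sets disagreed in sign. Exactly equal values, as for Anxa5 and Anxa7, were found on 28.2% of all 35557 probe sets.

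**Figure D1:**
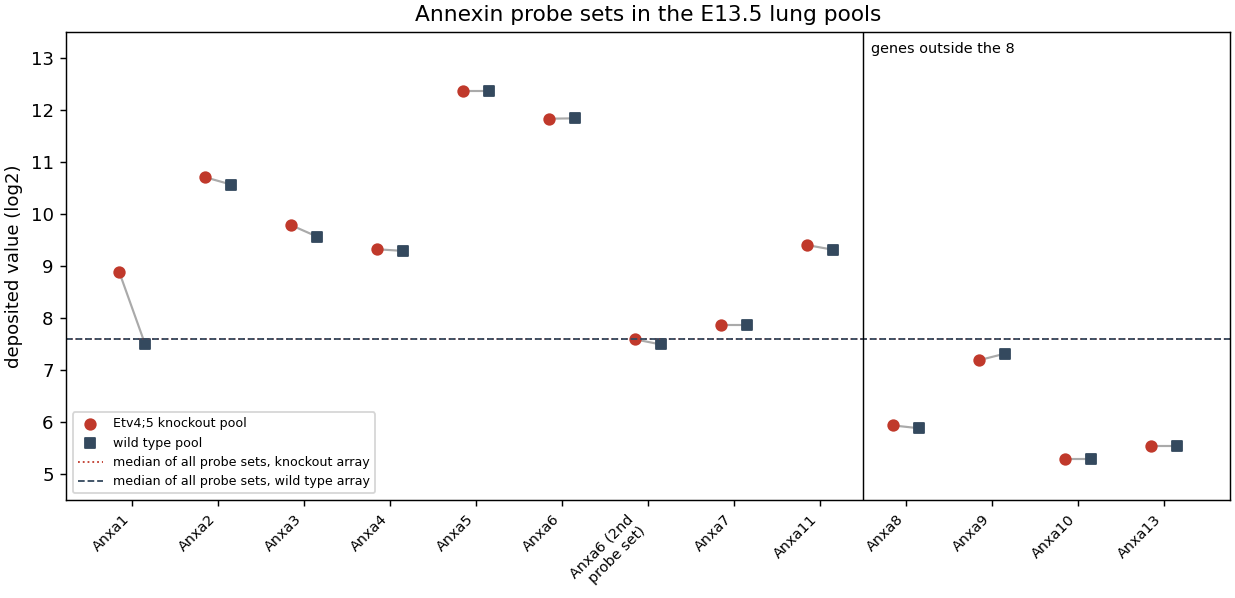
Deposited log2 values (vertical axis) of every annexin probe set with 1 gene symbol in the Etv4;5 knockout pool (red circles) and the wild type pool (dark squares), 1 array each, with no error bars because there were no replicates; the nearly coincident horizontal lines are the medians of all probe sets on each array (7.58 and 7.60). Anxa1 has the only steep connecting line, 8.89 in knockout and 7.50 in wild type, and levels of different genes are not comparable with each other.

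As a family, 5 of 8 members were higher in the knockout pool, 1 was lower and 2 were equal, against the 25.7% of measured genes that were higher, a share that cannot be read as a result because the family was chosen for this contrast. The median difference of the 8 members was 0.06 and the mean 0.23. Without Anxa1, 4 of 7 members were higher and the median was 0.03, which is smaller than the median gap between 2 probe sets of a gene (0.04). The label of a family higher in knockout therefore describes Anxa1, and to a smaller extent Anxa3, Anxa2 and Anxa11.

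**Figure D2:**
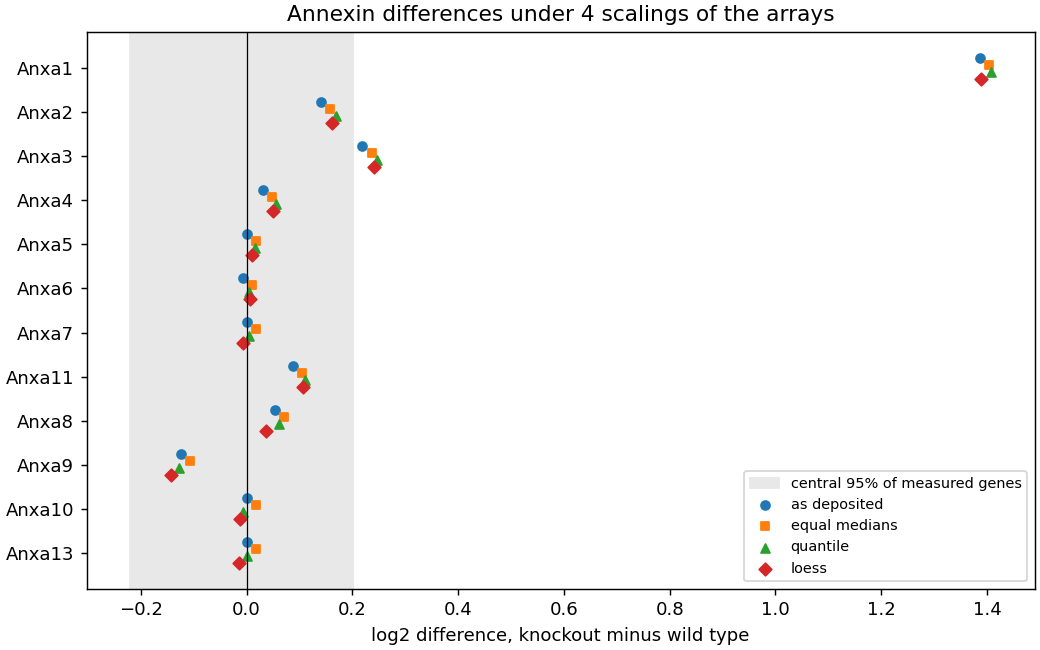
Log2 differences, knockout minus wild type (horizontal axis), of 12 annexin genes under 4 scalings of the arrays (markers), with the central 95% of measured genes in the deposited values (-0.22 to 0.20) as the grey band. Anxa1 lies between 1.39 and 1.41 and Anxa3 between 0.22 and 0.25, while Anxa5, Anxa6 and Anxa7 lie at 0 to within 0.02.

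The 4 other annexin genes on the arrays did not count as measured, since they lay below the array medians in both pools. Anxa8, an epithelial annexin, had values of 5.93 in the knockout pool and 5.88 in the wild type pool, a difference of 0.05. Anxa9, which has lost much of its calcium binding, had values of 7.19 in the knockout pool and 7.31 in the wild type pool, a difference of -0.12. Anxa10 and Anxa13, known from stomach and intestine, had 5.28 and 5.53 in the knockout pool and the same values in the wild type pool. Over all 12 annexin genes, 6 were higher and 2 lower, and the median was 0.02. Of all 19938 genes, measured or not, 33.4% were higher and 33.2% lower.

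Measured genes of the S100 family, some of which encode binding partners of annexins, were higher in small steps. S100 proteins are calcium sensors, of which S100a10 pairs with annexin A2 and S100a11 with annexin A1. Of 10 listed genes 5 were measured, and 5 of these 5 were higher in the knockout pool, with a median of 0.09, beside a median of 0 and a share of 25.7% higher over all measured genes. This list and those below were chosen with earlier results of these data known. Their counts are therefore given only as a description. S100a10 had a value of 11.88 in the knockout pool, against 11.70 in the wild type pool, a difference of 0.17. S100a11 had a value of 12.19 in the knockout pool, against 12.05 in the wild type pool, a difference of 0.13. The 3 others, S100a1, S100a13 and S100a16, which were named after their values were seen, were higher by 0.09, 0.07 and 0.04. None of the 5 differed by 1.2-fold, and S100a4, S100a6, S100a14, S100b and S100g were too dim to count.

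Lists of the processes in which annexins take part held 38 measured genes, Pdcd6 being on more than 1 list. Of these, 8 were higher (21.1%) and 16 lower (42.1%), close to the shares of all measured genes (25.7% higher and 47% lower). Of 14 measured membrane repair genes 1 was higher, 6 were lower and 7 were equal (median 0), with the ferlin gene Myof at -0.16 and Pdcd6ip, an adaptor of the repair machinery, at -0.07. Of 3 measured plasminogen system genes 0 were higher and 2 lower, with the urokinase receptor gene Plaur at -0.12 and the plasminogen receptor gene Plgrkt at -0.08. Of 13 measured endosome and vesicle partners 3 were higher and 6 lower (median 0). Egfr, the receptor whose kinase phosphorylates annexin A1, had a value of 9.25 in the knockout pool, against 9.65 in the wild type pool, a difference of -0.41, and was the only gene of that list past 1.2-fold, where 1.53% of measured genes were lower by that much. Of 9 measured copine, synaptotagmin and related genes, which also bind membranes through calcium, 4 were higher and 2 lower (median 0). Syt5, a synaptotagmin, had a value of 8.68 in the knockout pool, against 8.10 in the wild type pool, a difference of 0.58.

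The genes known to act above or below annexin A1 differed in both directions. Of 13 measured genes of the glucocorticoid response 7 were higher and 3 lower (median 0.0042), where 25.7% of all measured genes were higher and 47% lower. The transcription factor gene Klf9 had a value of 8.18 in the knockout pool, against 7.91 in the wild type pool, a difference of 0.26. It was the only gene of the list past 1.2-fold, where 1.39% of measured genes were higher by that much. Of 7 measured phospholipase A2 and prostaglandin genes 1 was higher and 3 were lower (median 0), which is near those shares of all measured genes. Ptges, a prostaglandin E synthase, had a value of 8.91 in the knockout pool, against 9.17 in the wild type pool, a difference of -0.27. Of the formyl peptide receptors, through which annexin A1 signals, 3 of 6 listed genes were matched and 0 were measured, at levels between 3.72 and 6.73 in the knockout pool and between 3.72 and 6.51 in the wild type pool.

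**Figure D3:**
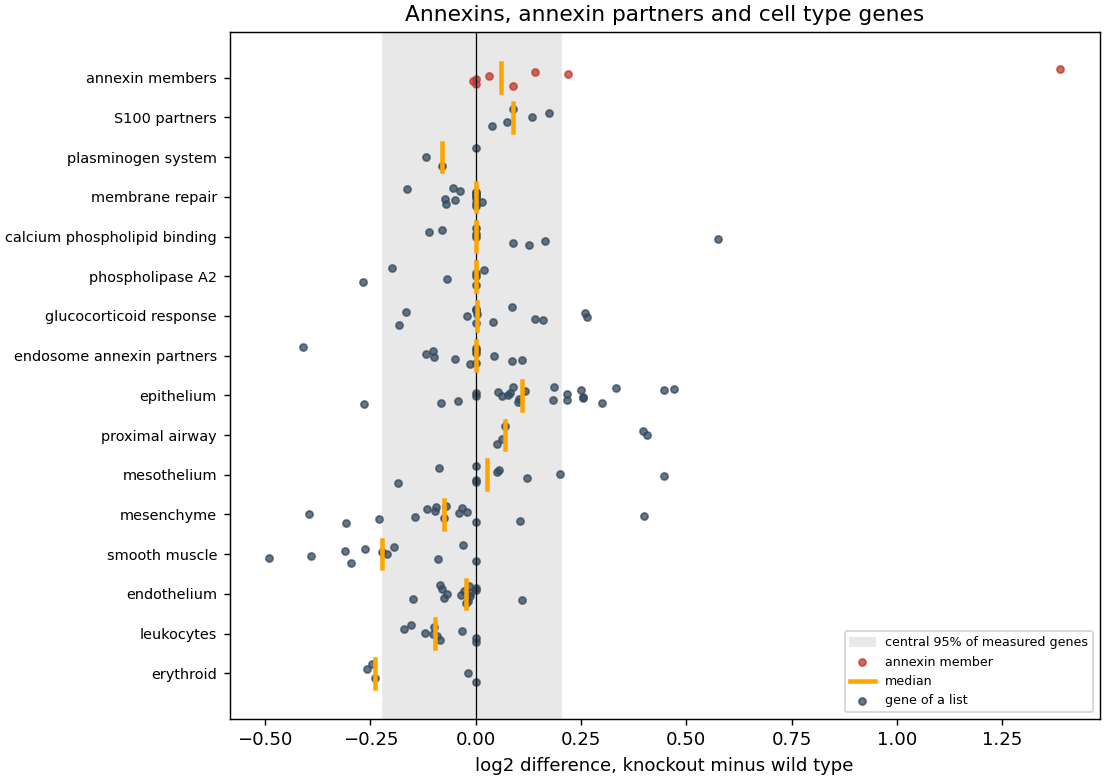
Log2 differences, knockout minus wild type (horizontal axis), of the annexin members and of measured genes of the lists (points, with vertical offsets only to separate them). Orange bars are medians and the grey band is the central 95% of measured genes. The distal tip and sex-linked lists, which also hold measured genes, are not drawn. The annexin median of 0.06 lies between those of the proximal airway (0.07) and mesothelium (0.03) lists, and Anxa1 is the only annexin far outside the band.

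Cell type genes differed beside the annexins. In bulk lung, more cells of a type and more RNA per cell cannot be told apart. Over all measured genes 25.7% were higher and 47% lower, and each count of a list here stands beside these shares. Of 24 measured genes of lung epithelium, of 25 listed, 19 were higher and 3 lower in the knockout pool (median 0.11). Their mean level was 9.90 in the knockout pool and 9.75 in the wild type pool. The keratin genes Krt18, Krt19 and Krt8 were higher by 0.47, 0.45 and 0.33 and Rab25, an epithelial vesicle GTPase, by 0.30, while Cldn18, a lung claudin, differed by -0.27. Of 10 measured mesothelial genes, of 12 listed, 5 were higher and 2 lower (median 0.03), and Krt19 is on this list as well. Of 5 measured genes of the proximal airway, of 11 listed, 5 were higher (median 0.07), among them Klf5 at 0.40 and Aldh1a7 at 0.41. The part of these cell types in the annexin differences was not tested.

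Leukocyte genes are given because adult leukocytes are rich in annexin A1. Of 10 measured leukocyte genes, of 15 listed, 0 were higher and 8 lower in the knockout pool (median -0.10), where 25.7% of all measured genes were higher and 47% lower, with Mrc1 at -0.17 and Csf1r at -0.15. Their matched genes had a mean level of 8.01 in the knockout pool and 8.07 in the wild type pool. Of 13 neutrophil genes 0 were measured, with levels between 4.54 and 6.84 in the knockout pool and between 4.54 and 7.54 in the wild type pool. The part of leukocytes in the annexin differences was not tested. Genes of smooth muscle (0 of 11 measured genes higher, median -0.22), mesenchyme (2 of 15, median -0.08), endothelium (1 of 15, median -0.02) and red cell precursors (0 of 5, median -0.24) had negative medians. Of the mesenchyme genes, Fgf10 was higher by 0.40, while Foxf1 and Wnt2 differed by -0.40 and -0.31. Of the smooth muscle genes, Synpo2, Myocd, Cnn1 and Tpm2 differed by -0.49, -0.39, -0.31 and -0.30. The endothelial genes Sox18 and Sox17 differed by 0.11 and -0.15, and the red cell genes Slc4a1 and Hba-x by -0.26 and -0.25. The mean level of the 12 matched smooth muscle genes was 9.93 in the knockout pool and 10.14 in the wild type pool.

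The genes whose difference came nearest to that of Anxa1, over the 2 arrays, were Lamp3, Edil3 and Cpxm2. Lamp3, a membrane protein of lamellar bodies, had a value of 8.13 in the knockout pool, against 6.71 in the wild type pool, a difference of 1.42. Edil3, an integrin-binding matrix protein gene, had a value of 9.38 in the knockout pool, against 8.17 in the wild type pool, a difference of 1.21. Cpxm2, of the carboxypeptidase family, had a value of 8.15 in the knockout pool, against 6.51 in the wild type pool, a difference of 1.63. The wild type values of Lamp3 and Cpxm2, like that of Anxa1, lay under the array median, so these genes counted as measured only through the knockout array and the sizes of their differences rest on dim values. With 2 arrays this nearness is only that of a single difference. Of 12 measured genes on the distal tip list 4 were higher, Lamp3 among them, and 7 lower (median -0.20). That list holds surfactant and lamellar body genes beside tip factors. Etv5, a gene targeted in the knockout, is on it and is among the 7 lower (-0.23). Over all measured genes 25.7% were higher and 47% lower, so these counts are near the background. Sftpb, for surfactant protein B, and the protease gene Ctsh were higher by 1.91 and 0.43, while Sftpc, for surfactant protein C, Shh, Sox9 and Id2 differed by -1.12, -0.41, -0.32 and -0.31.

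Some neighbours of Anxa1 in gene order were higher as well. The 5 genes on each side of every member, among genes on the arrays, gave 80 neighbours, of which 54 were measured, with a median difference of -0.03. Of these 54, 12 were higher and 34 lower, where 25.7% of all measured genes were higher and 47% lower. Only 2 were higher by at least 1.2-fold, where 1.39% of all measured genes were, and both lay beside Anxa1 on chromosome 19. Aldh1a1, a retinaldehyde dehydrogenase and the second gene past Anxa1, had a value of 9.16 in the knockout pool, against 8.90 in the wild type pool, a difference of 0.27. Aldh1a7, its close mouse relative and the gene after it, had a value of 10.84 in the knockout pool, against 10.44 in the wild type pool, a difference of 0.41. These genes are near copies of each other, so their probe sets may read both transcripts. The other 3 measured neighbours of Anxa1 differed by 0.01, -0.01 and -0.07. Next to Anxa3, Fras1, a basement membrane protein gene named after its value was seen, was higher by 0.26, just under 1.2-fold, while the other 6 measured neighbours of Anxa3 were lower.

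**Figure D4:**
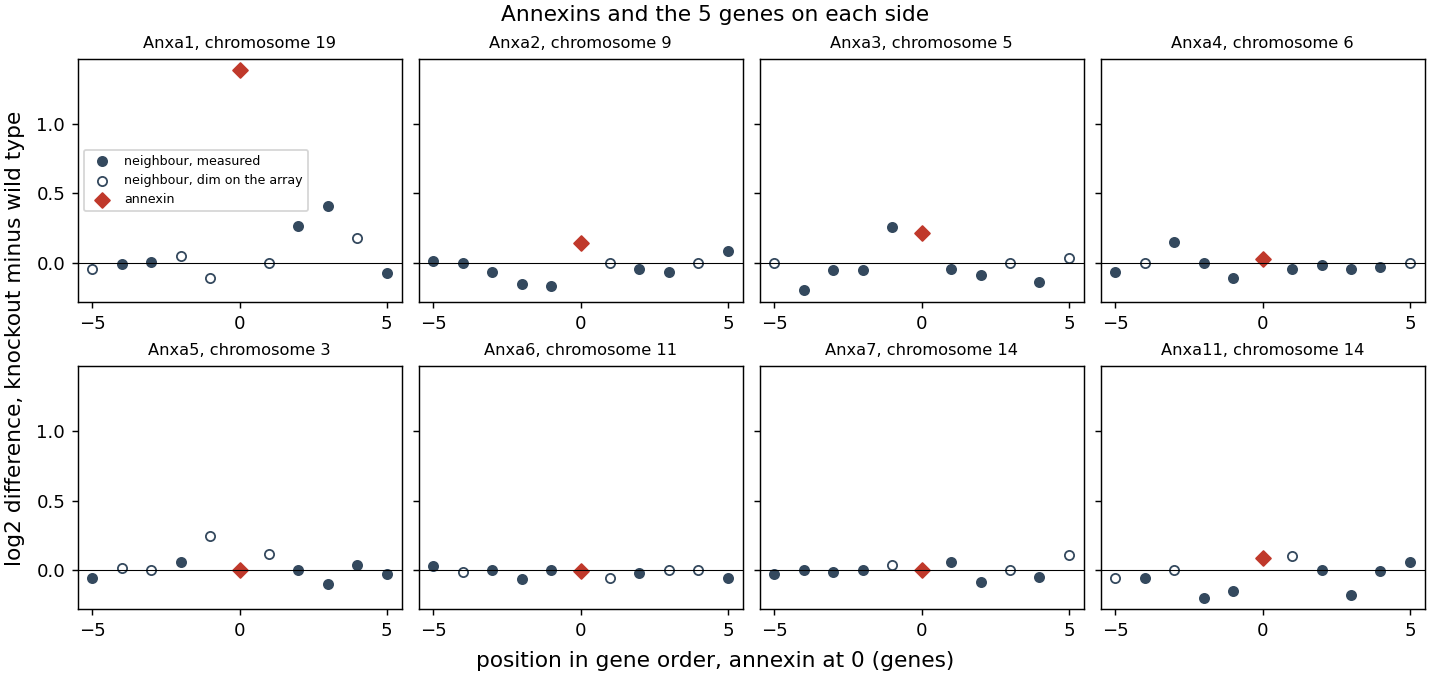
Log2 differences, knockout minus wild type (vertical axis), of each annexin member (red diamond) and the 5 genes on each side of it in chromosome order (horizontal axis, in genes); open circles are genes under the level limit. Beside Anxa1, Aldh1a1 and Aldh1a7 are higher by 0.27 and 0.41, and the highest measured neighbour of another member, Fras1, is at 0.26.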

How the data were processed

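Per the labels' protocols, total RNA from embryonic lung was column-purified and biotin-labelled for Affymetrix arrays. The design text states that each group's RNA was a pool of 3 samples. The authors deposited 1 value per probe set and array, taken as log2 from the range (2.69 to 14.4 in the knockout pool, 2.72 to 14.4 in the wild type pool); the log base, summary method and normalization are not given in the sources used here, so folds assume base 2.

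Of 35557 probe sets 21789 had 1 gene symbol in the platform annotation, 1621 had several and 12147 were unnamed here. A RefSeq table (GRCm38.p6), used for chromosomes, gene order and current symbols, held 21698 of the 21789, and 0 changed name. Promoter windows came from RefSeq and were matched by symbol. The members and lists were chosen with earlier results of these data known; the motifs were chosen after the windows were seen.

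Named by rule were all annexins, Etv4, Etv5, sex-linked genes and list members past 1.2-fold (at most 4 per direction, otherwise the 2 largest). Member neighbours past 1.2-fold and the 3 genes nearest in difference to a member past 2-fold were named too. Further genes, among them Nkx2-1, Fras1 and other S100 and neutrophil genes, were named outside this rule. No test was run, as each group had 1 array, whose number limits the precision. Steps were tested on simulated data. Alternatives were 3 scalings (loess with span 0.3, quantile, equal medians), averaging of probe sets, a floor at the 25th percentile, other level filters and folds of 1.5 and 1.2. Python 3.11.15, numpy 2.4.6, pandas 2.3.3, statsmodels 0.14.6 and matplotlib 3.10.9 were used.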

Additional observations from a re-analysis of the deposited data

How the results depend on the processing

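The count of 5 higher members was 8 with equal medians, 8 with quantile scaling and 7 with loess. The counts of 8 arose because Anxa5, Anxa6 and Anxa7 lie at or near 0. The share of 25.7% of measured genes higher holds for the deposited values only. With equal medians every difference rose by 0.02, so the 27.3% of measured genes with exactly equal values became higher too. The share was not counted under these scalings, so their member counts have no background here. Anxa1 was left out by the 75th percentile filter, so the count of members past 2-fold was 0 there, of 6 counted, and 1 otherwise. That filter also gave medians of 0.13 for S100 genes, 0.064 for the glucocorticoid response and 0.19 for epithelium, from fewer genes. Without a level filter the plasminogen median was 0 and the erythroid median -0.0088, from more genes. The family median lay between 0.016 and 0.083 in all settings. All 12 annexins (median 0.016), the family without Anxa1 (0.03) and a count beyond the probe set gap (4) were added after seeing the data. With equal medians the measured genes' own median became 0.02, as large as some list medians, so those carry no direction. Over both probe sets Anxa6 differed by 0.05. No paired analysis was possible because each group had 1 array, and no array could be left out. Dim signal limits the sizes of the Anxa1, Lamp3, Cpxm2 and Etv4 differences, the 4 other annexins and the formyl peptide receptors.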

Other observations

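The whole S100 family was looked at after its listed genes had been seen. Of 17 S100 genes on the arrays 12 were higher in the knockout pool, 1 was lower and 4 were equal, with a median of 0.07, where 33.4% of all 19938 genes were higher and 33.2% lower. Only 5 of them were measured. Of the 12 under the level limit 7 were higher, where 42.9% of all genes under that limit were. Among the dim ones, S100a2 had a value of 6.17 in the knockout pool, against 5.78 in the wild type pool, a difference of 0.38. S100a8, a neutrophil gene, had a value of 5.31 in the knockout pool, against 5.68 in the wild type pool, a difference of -0.37. Of the 13 neutrophil genes, all under the level limit, 4 were higher (30.8%), 5 lower (38.5%) and 4 equal (median 0). Among all genes under that limit 42.9% were higher and 16% lower. Cebpe and Elane were higher by 0.19 and 0.16. Ngp had a value of 6.52 in the knockout pool, against 7.54 in the wild type pool, and Lcn2 had 6.28 in the knockout pool, against 7.24 in the wild type pool.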
